A study of Oryza sativa with 36 samples.

Results

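The organs compared here are the young panicle and the leaf of well-watered rice plants at booting, the stage at which the inflorescence is still enclosed in the sheath of the uppermost leaf. The samples were chosen by their labels alone: 3 arrays of watered young panicle and 3 arrays of watered leaf, 6 of the 36 arrays of the series. The full series holds 12 groups of 3 arrays, covering droughted and watered leaf at tillering, panicle elongation and booting, root at tillering and panicle elongation, and young panicle at booting. All plants were of DK151, a drought-tolerant line derived from IR64, grown in tubes of Turface with nutrient solution, and the droughted groups had the solution drained off slowly. The groups used are watered young panicle and watered leaf at booting, and droughted young panicle and droughted leaf at the same stage. The droughted arrays had no part in the watered means, but all 36 arrays shared the model's estimate of spread. Each replicate was an individual plant according to the study's methods, but the labels do not say whether a panicle and a leaf of the same number came from the same plant. All values therefore describe 1 line, and each array averages over every cell type of its organ.

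The rice panicle bears spikelets, each with glume-like organs, lodicules, stamens and a carpel. MADS-box transcription factors act in combination to give these organs their identity, and KNOX, YABBY and SPL factors keep meristems active or shape the lateral organs. Within the anther the tapetum, the innermost wall layer, feeds the developing pollen and supplies its wall with lipids. The expanded leaf fixes carbon, exports sucrose and, under inductive day length, makes the mobile flowering signal.

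Values are array intensities after the authors' normalization, and differences are log2 young panicle minus leaf, with standard errors from 1 model of all 12 groups (n = 3 arrays each). A probe was called when its adjusted p was under 0.05 (limma, Benjamini-Hochberg over 57258 rice probes) and the difference was 5-fold or more. Of these probes, 2981 (5.21%) were called higher in young panicles and 1630 (2.85%) were called lower. Taking 1 probe for each of 17905 genes, 2078 genes (11.6%) were higher and 856 (4.78%) lower. These gene shares are the background for every count below. The imbalance was greater among large differences, since 226 genes were higher and 31 lower by 50-fold or more. The median difference over all probes was -0.11, and over the 17905 genes it was 0.21. In whole organs, fewer cells of a type and less RNA per cell cannot be told apart.

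**Figure D1:**
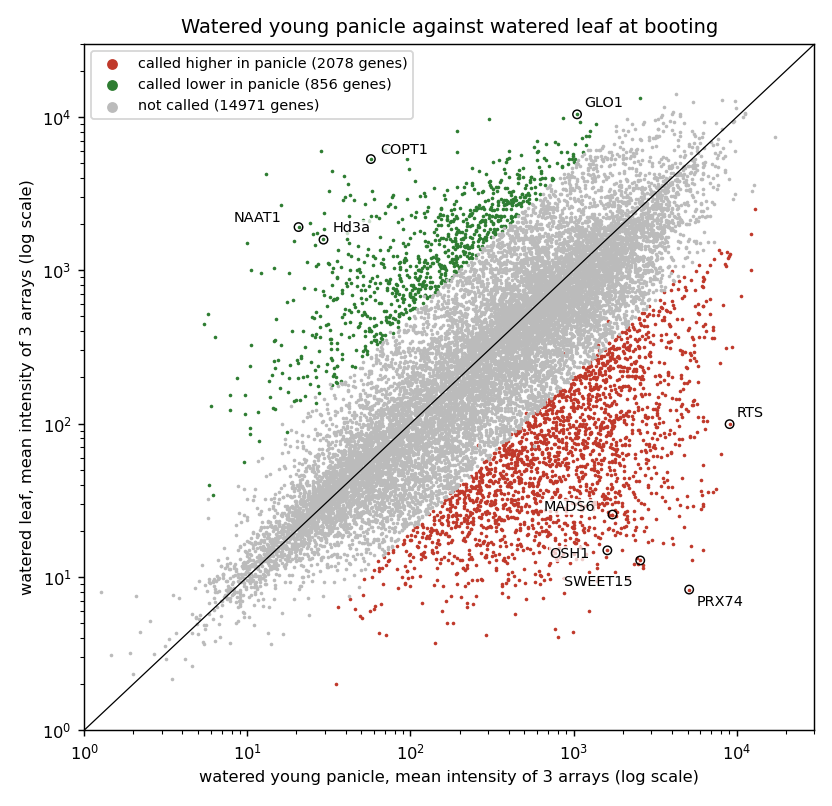
Mean intensity of 17905 genes in watered young panicles (horizontal, log scale) and watered leaves (vertical, log scale), 3 arrays each, with 2078 genes called higher in panicles, 856 called lower and 14971 not called. PRX74 and SWEET15 lie far below the line of equality, and COPT1, NAAT1 and Hd3a far above it.

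Arrays of 1 organ were close to each other. Pearson's r of log2 values over all probes was 0.9888 to 0.9939 among panicle arrays and 0.9771 to 0.9878 among leaf arrays, against 0.8076 to 0.8306 between the organs. Median intensities were 61.4 to 62.4 in panicles and 59.9 to 62.5 in leaves. The 36 control probes for the poly-A spikes dap, lys, phe and thr were lower in panicle arrays by 0.73 to 1.46 on the log2 scale, and 15 probes for the hybridization controls bioB and bioC by 0.64 to 1.52, while 6 probes for cre lay between -0.10 and 0.04. The part of these technical differences in the results was not tested. No scan date or other batch was used, as neither the labels nor the table held one. Actin, a common reference for expression, was no neutral one here. ACT1 had intensities of 7320, 7023 and 7428 in panicles and 1191, 1194 and 1149 in leaves, so it was 6.16-fold higher. The 5 control probes for the 3′ end and middle of rice actin were higher by 2.42 to 2.70, but those for its 5′ end only by 0.79 and 0.64. The brighter Gapdh control probes gave 0.54 at the 3′ end, -0.07 in the middle and -0.50 at the 5′ end. The organ difference of these controls thus depended on the position in the transcript, and the part of this in the results was not tested. None of the 18 cytosolic ribosomal protein genes was called (median difference 0.05, 1 with an adjusted p under 0.05 in limma).

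Summed marker intensities followed the organ labels, although not every single marker did. The summed intensity of 13 floral organ markers was 20830 to 23824 in panicles and 1536 to 1762 in leaves, and that of 6 anther and tapetum markers was 15202 to 18418 in panicles and 388 to 435 in leaves. For 10 photosynthetic mesophyll markers the sum was 26781 to 30212 in panicles and 70292 to 74320 in leaves, against 722 to 9360 in watered roots at elongation. Such sums weigh bright genes most, as with RTS of the anther set, which averaged 9052 in panicles. Called higher were 9 of the floral and 5 of the anther markers, and 2 of the mesophyll markers were called lower. Of 8 meiocyte markers 0 were called. MADS3 (-0.27), PTC1 (-0.48) and CAB2R (-0.20) were among the markers not called. The sum of 14 root markers, 2136 to 2310 in panicles and 955 to 1134 in leaves, was far below the 31812 to 53812 of watered roots. Of these 14 markers, 2 were called higher in panicles and 0 lower: the potassium transporter HAK1 averaged 1079 in panicles and 90.9 in leaves, and SHR1 averaged 169 in panicles and 21.8 in leaves. Lsi2, NAS1 and OsPT11 were near the bottom of the scale in both organs, with no array above 34, and Lsi1 averaged 107 in panicles and 294 in leaves. The part of these markers in the results was not tested.

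Floral identity genes separated the organs. Of 30 MADS-box factors measured, 10 were called higher in panicles (33.3%, against 11.6% of all genes) and 1 lower, with a median of -0.09, so the rise belonged to part of the family. MADS6, an AGL6-class factor of floral meristem and organ identity, read 1864, 1586 and 1749 in panicles and 22.7, 28.2 and 25.7 in leaves, a difference of 6.09 ± 0.15. The SEPALLATA-class factors MADS7 and MADS8 read 1613 to 2097 and 2494 to 2882 in panicles, against 27.8 to 39.5 and 60.3 to 80.7 in leaves. Every panicle array lay far above every leaf array for these 3 genes. MADS5, of the same class, was 58.3-fold higher and MADS17, a close relative of MADS6, 35.2-fold higher.

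Genes of the inner floral organs followed. MADS4, a B-class gene of lodicules and stamens, was higher by 4.91 ± 0.10, and its partner MADS16 had 6820, 6163 and 6587 in panicles and 532, 926 and 423 in leaves. MADS58, a C-class gene of stamens and carpels, was 35.3-fold higher. The other C-class gene, MADS3, did not separate the organs, with 276, 218 and 272 in panicles and 345, 274 and 303 in leaves. MADS13, an ovule identity gene, and DL, a YABBY factor of the carpel and leaf midrib, differed by 1.43 ± 0.22 and 1.36 ± 0.15 and missed the fold minimum. MADS1, the floret and lemma gene, was 16.5-fold higher although leaves were not at background for it: panicles gave 4628, 4129 and 4709, and leaves 388, 136 and 381. The lowest leaf reading was that of replicate 2, which stood apart for several genes below.

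The MADS-box genes of flowering time and vegetative growth behaved otherwise. MADS14 and MADS18, relatives of Arabidopsis APETALA1, had mean intensities of 1563 and 866 in panicles and 2992 and 1492 in leaves and were not called, whereas MADS15 of the same clade was higher by 3.24. MADS50, MADS55, MADS22 and MADS47, which act in flowering time or vegetative meristems, had negative differences of -1.11 to -1.78 without a call. MADS26, known from stress responses, was the family member called lower, with 204, 152 and 126 in panicles and 1074, 892 and 1199 in leaves.

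Some meristem and organ-shape regulators were called higher in panicles, and most were not called. Of 49 homeobox factors 9 were called higher (18.4%, against 11.6% of all genes), 2 lower and 38 in neither direction. OSH1, the KNOX gene of the shoot meristem, read 1809, 1598 and 1430 in panicles and 14.1, 18.3 and 12.2 in leaves, a difference of 6.77 ± 0.32. OSH71, another meristem KNOX gene, was 29.1-fold higher and the homeobox gene HOS66 103-fold higher. The 2 homeobox genes called lower were OSH45 and HOS59, both of the KNOX class that is also active in differentiated organs, with differences of -2.54 ± 0.14 and -2.38 ± 0.11. The homeobox genes thus went in both directions, with no overlap of the arrays in any of these 5.

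Of 31 YABBY, SPL, GRF, GIF and TCP factors 9 were called higher (29.0%) and 0 lower, and the median was 1.45. YAB1 gave 6391, 5365 and 5502 in panicles and 89.6, 101 and 74.8 in leaves. SPL18 was 66.5-fold higher, SPL16, a regulator of grain shape, 17.8-fold, and GRF6, a growth-regulating factor, 13.2-fold. SPL14, the ideal plant architecture gene, averaged 107 in panicles and 21.0 in leaves and was higher by 2.33, just past the 5-fold minimum. SPL15, SPL1 and GRF11 had differences between -0.22 and 0.05.

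Genes that set panicle branching were mostly not called. Among 10 such genes 2 passed, both of the ALOG family: G1L1 had 172, 225 and 211 in panicles and 8.12, 6.94 and 6.99 in leaves, and G1L2 was 13.8-fold higher. LAX1 and FZP, which act in axillary and spikelet meristems, gave -0.07 and -0.48.

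The anther list had the highest median of the 34 lists counted, 4.28. Of 16 genes of anther, tapetum and pollen wall 10 were called higher (62.5%) and 0 lower. RTS, a gene of the tapetum, read 9256, 9087 and 8812 in panicles and 89.8, 126 and 82.3 in leaves. OSC6, a lipid transfer protein of the tapetum, gave 3497, 2737 and 2837 in panicles and 15.9, 16.6 and 19.5 in leaves, a 175-fold difference. The tapetal bHLH regulators TDR and EAT1 were 53.0-fold and 25.3-fold higher, and AP25, an aspartic protease downstream of EAT1, was 139-fold higher. Genes of the exine and anther cuticle were higher too. CYP703A3, a fatty acid hydroxylase needed for both, read 2627, 1541 and 1485 in panicles and 34.2, 25.3 and 33.1 in leaves, and OsRAFTIN1, a protein of the pollen wall, was 42.6-fold higher. PTC1, a late tapetal regulator, was instead at 121, 112 and 97.0 in panicles and 171, 152 and 137 in leaves.

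Meiotic genes were called about as often as all genes. Of 21 genes 2 were called higher (9.52%, against 11.6%) and 1 lower (4.76%, against 4.78%), and in the narrower set of 8 meiocyte markers 0 were called in either direction (5 with an adjusted p under 0.05 in limma). Without panicle replicate 1 DMC1 passed (2.40), and without leaf replicate 2 MSP1 did (2.38). DMC1, the meiotic recombinase, had 36.2, 72.7 and 55.6 in panicles and 14.3, 13 and 9.5 in leaves, a difference of 2.13 ± 0.24 with an adjusted p of 1.61e-08. MSP1, the receptor that limits the number of spore mother cells, differed by 2.24 ± 0.14, and MEL1, a germline Argonaute, by 1.87 ± 0.14. PAIR1, SDS and MER3 overlapped between the organs. Among the genes called, SPO11-4 was 16-fold higher in panicles and SPO11-3, related to an Arabidopsis topoisomerase subunit of somatic endoreduplication, 8.43-fold lower.

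**Figure D2:**
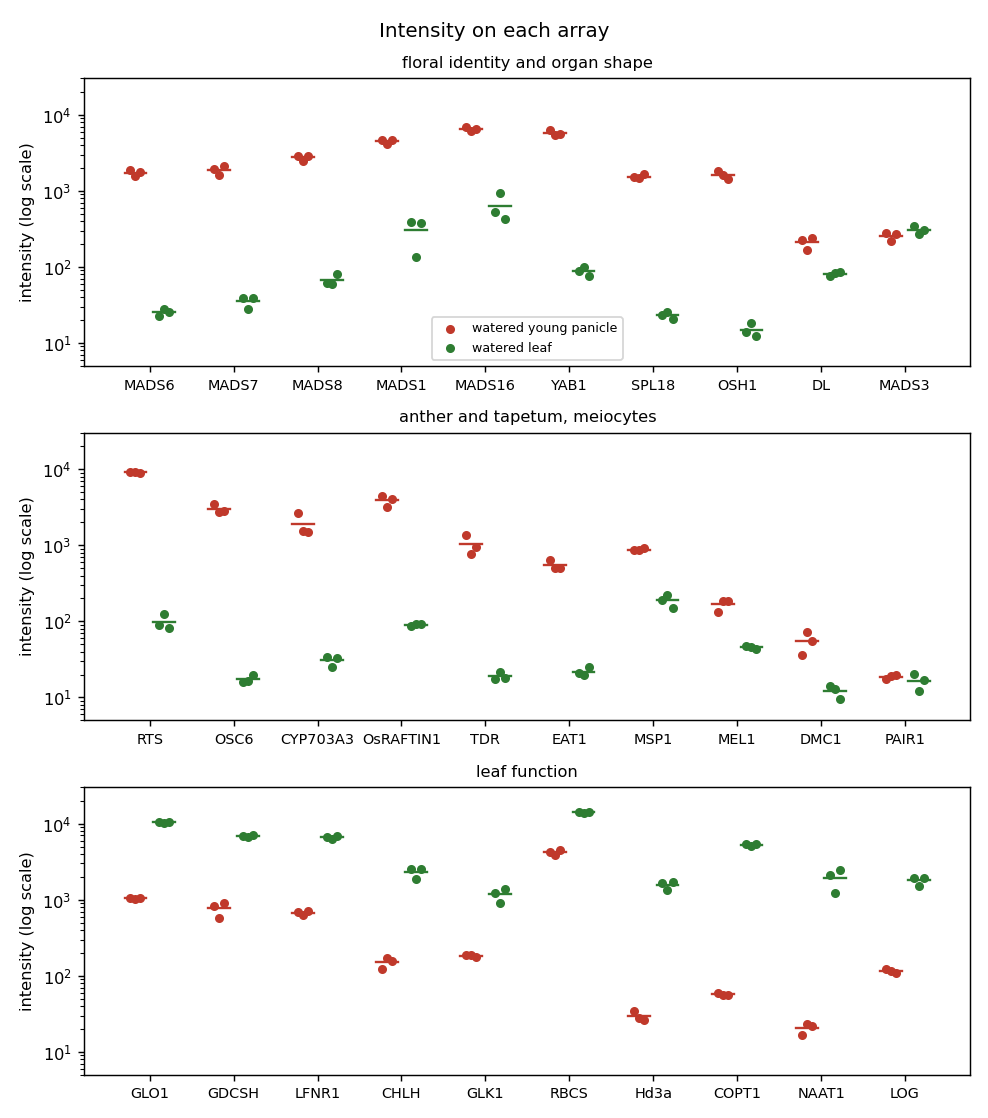
Intensity on each of the 3 watered young panicle arrays (left in each pair) and 3 watered leaf arrays (right in each pair), log scale, with the mean as a line, for 10 floral, 10 anther or meiocyte and 10 leaf genes. The groups are separate for all except MADS3 and PAIR1, whose arrays overlap.

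Genes of the microtubule system were called higher more often than the background, and those of the cell cycle were not. Of 43 kinesin and tubulin genes 20 were called higher (46.5%) and 0 lower, with a median of 2.15, whereas of 60 cell cycle and replication genes 6 were called higher (10%, near the background of 11.6%) and 0 lower. TUB6, a beta-tubulin, read 8035, 6686 and 5101 in panicles and 121, 109 and 83.5 in leaves. KIN5A, a kinesin of the spindle-motor class, was 40.8-fold higher and KIN13B 38.6-fold higher. Tubulin genes are similar in sequence, so probes may share transcripts among them. The cell cycle calls were cyclins of the P and D types and 1 kinase: CYCP4-1 had 2185, 2078 and 2006 in panicles and 23.5, 29.2 and 18.5 in leaves, CYCP2-1 was 52.9-fold higher and CDKF-4 9.40-fold higher. None of 6 core histone genes was called (median -0.41, 5 with an adjusted p under 0.05), nor was any of 11 DNA methylation and chromatin regulators (4 with an adjusted p under 0.05).

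Most genes of cellulose synthesis were called higher. Of 29 cellulose synthases and related genes 19 were called higher (65.5%) and 1 lower, with a median of 3.18. The list covered both kinds of cellulose synthase complex. CESA4, of the secondary wall, read 7492, 8625 and 7642 in panicles and 151, 450 and 144 in leaves, and its partners CESA7 and CESA9 were higher by 4.40 and 5.28. CESA6, of the primary wall, gave 4430, 4788 and 4367 in panicles and 172, 245 and 181 in leaves, and CESA1, CESA3, CESA5 and CESA8 were higher by 2.95 to 4.46. CSLF6, which makes the mixed-linkage glucan of grass walls, was 28.6-fold higher. The exception was CSLE1, 5.6-fold lower. Leaf replicate 2 was the high leaf array for CESA4, and the panicle arrays lay above all 3.

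Part of the wall loosening and lignification genes were called higher too. Of 29 expansins 11 were called higher (37.9%), 0 lower and 18 in neither direction. EXP7 had 3844, 4012 and 4150 in panicles and 16.1, 18.5 and 19.3 in leaves, a 223-fold difference, and EXP16, EXPB6 and EXPB11 were 16.8-fold to 24.7-fold higher. Of 25 phenylpropanoid and laccase genes 9 were called higher (36%), 1 lower and 15 in neither direction. CAD2, a cinnamyl alcohol dehydrogenase of lignin synthesis, gave 7947, 6717 and 6512 in panicles and 259, 618 and 205 in leaves. Laccases, which polymerise lignin precursors, went both ways: LAC4 was 60-fold and LAC10 41.1-fold higher, while LAC7 read 22.8, 63.2 and 57.3 in panicles and 1490, 1331 and 1489 in leaves.

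**Figure D3:**
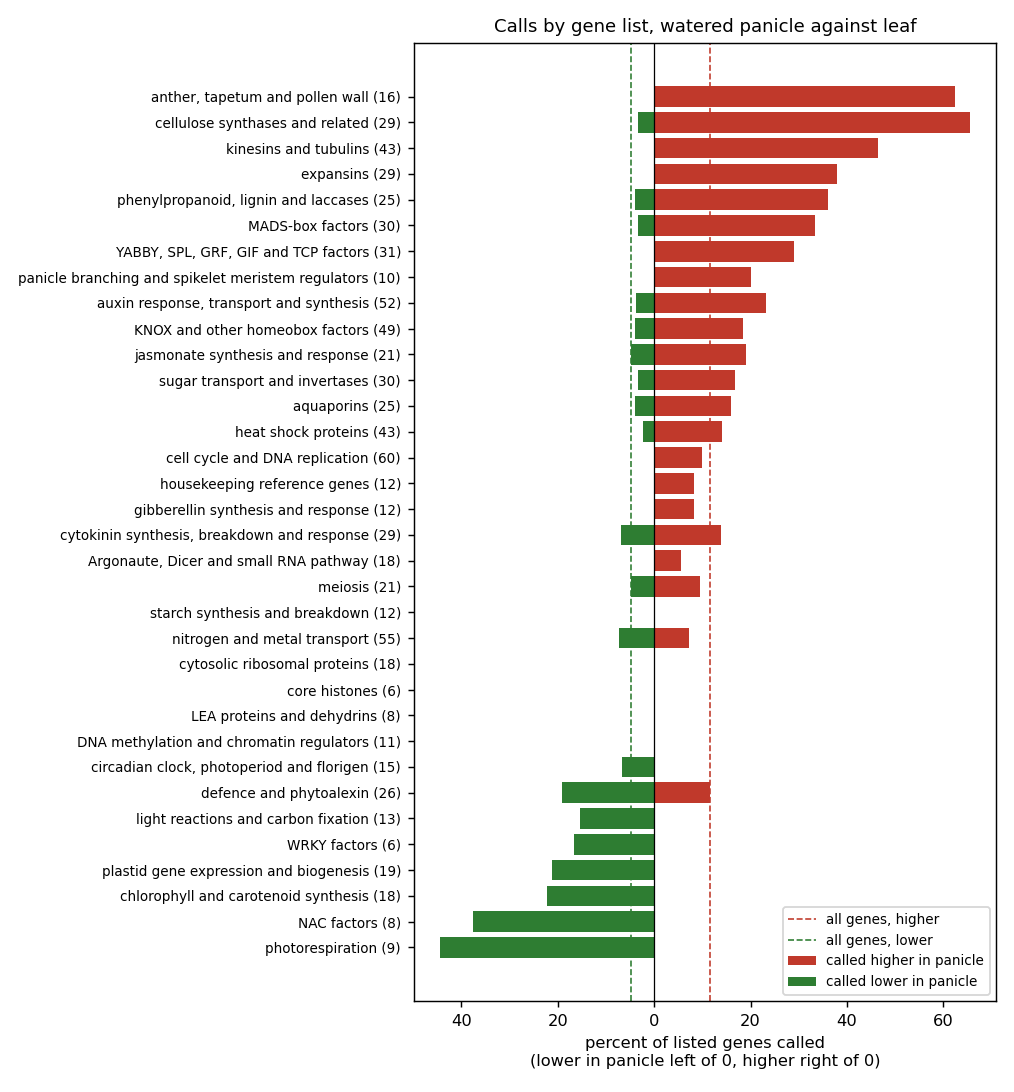
Percent of the genes of each of 34 lists called higher (right of 0) and lower (left of 0) in watered young panicles than in watered leaves, with list sizes in brackets and the shares over all genes, 11.6% and 4.78%, as dashed lines. Cell wall, anther and kinesin lists reach furthest to the right and photorespiration, at 44.4%, furthest to the left.

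Among hormone genes, those of auxin were called higher above the background. Of 52 genes 12 were called higher (23.1%) and 2 lower. Aux/IAA repressors led: IAA14 read 482, 393 and 439 in panicles and 5.58, 5.87 and 5.67 in leaves, IAA30 was 59.1-fold and IAA31 34.2-fold higher. GH3.4, of a family of hormone-conjugating enzymes, was 66.0-fold higher. The 2 genes called lower were SAUR39, a negative regulator of auxin synthesis and transport (32.8-fold lower), and PIN5A, 20.5-fold lower.

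Of 29 cytokinin genes 4 were called higher (13.8%) and 2 lower (6.9%), near the 11.6% and 4.78% of all genes. CKX5, a cytokinin oxidase, and PHP5, a phosphotransfer protein, were 16.5-fold and 15.9-fold higher. LOG, the activating enzyme whose loss ends panicle meristems early, was by contrast lower, with 124, 114 and 108 in panicles and 1948, 1531 and 1911 in leaves. Its relatives LOGL7 and LOGL10 were 7.39-fold and 5.87-fold higher, although the call of LOGL10 was lost without leaf replicate 2 (2.08 on the log2 scale). The response regulator RR4 was 6.11-fold lower. Of 12 gibberellin genes 1 was called higher (8.33%), the synthesis enzyme GA20OX3 (13.7-fold). For jasmonate 4 of 21 genes were higher (19%) and 1 lower (4.76%). JAZ13, a repressor of the response, was 51.2-fold higher, the lipoxygenase LOX5 15.9-fold, OPR10 11.6-fold and the allene oxide synthase AOS1 5.48-fold higher. The lipoxygenase LOX9 was 15.2-fold lower.

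Sugar handling separated the organs by gene rather than as a whole. Of 30 genes 5 were called higher (16.7%) and 1 lower. The sucrose exporter SWEET15 read 3116, 2331 and 2244 in panicles and 11.3, 16.3 and 10.9 in leaves, a difference of 7.65 ± 0.50, and SWEET11, of the same clade, was 91.3-fold higher. CIN2, a cell wall invertase that splits sucrose on arrival, gave 1426, 572 and 608 in panicles and 8.53, 5.99 and 8.84 in leaves. The first panicle array read more than 2-fold above the others, and the organs were far apart. SUS1, a sucrose synthase, had 9917, 9057 and 9114 in panicles and 265, 465 and 217 in leaves. SWEET1B was the member called lower, with 82.0, 88.2 and 97.3 in panicles and 2428, 1949 and 2121 in leaves. No gene of 12 for starch synthesis and breakdown was called (8 had an adjusted p under 0.05). Single calls appeared there with other settings.

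Transport of water and nutrients gave small lists of strong differences. Of 25 aquaporins 4 were higher (16%) and 1 lower (4%), against 11.6% and 4.78% of all genes. NIP4-1 read 3316, 2266 and 2403 in panicles and 15.7, 11.1 and 7.86 in leaves, and NIP1-1 was 87.2-fold higher. PIP1-3, a plasma membrane aquaporin, was 5.30-fold lower, a call lost without panicle replicate 1 or leaf replicate 1 (-2.30 and -2.29). Of 55 nitrogen and metal transport genes 4 were called in each direction (7.27% each), so higher calls were below the background share. NRAMP5, a manganese and cadmium transporter, had 1773, 1789 and 1582 in panicles and 58.1, 57.5 and 53.6 in leaves. NRAMP3, a node-associated manganese transporter, was 10.5-fold higher. VIT1.2, a vacuolar iron transporter homologue, was called 5.76-fold higher from panicle readings of 893, 195 and 188 and leaf readings of 34.6, 124 and 40, and the call was lost without panicle replicate 1 (1.79), leaf replicate 1 (2.18) or leaf replicate 3 (2.29). On the other side NIA1, a nitrate reductase, was 13.8-fold lower, AMT2-1, an ammonium transporter, 8.62-fold lower, YSL13 8.58-fold and VIT1 7.52-fold lower.

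Genes of leaf function were called lower in part. Of 9 photorespiration genes 4 were called lower (44.4%, against 4.78% of all genes). When every probe was counted 8 were called lower, 3 of them for GLO5, so the gene shares are no background for that count. GLO1, a glycolate oxidase of the peroxisome, read 1070, 1017 and 1066 in panicles and 10457, 10266 and 10556 in leaves, although a second, dimmer probe annotated to it gave 885 to 966 in panicles and 528 to 579 in leaves. GLO5 was 11.6-fold lower, GDCSH, a subunit of glycine decarboxylase, 9.09-fold and GLN2, the plastid glutamine synthetase that recaptures ammonium, 6.54-fold lower. GLO3 and GLO4 had differences of 0.45 and 0.23, so the family did not move as 1 unit.

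For light reactions and carbon fixation the call depended on the probe. Of 13 genes 2 were called lower by their brightest probe (15.4%, against 4.78% of all genes). When every probe was counted 8 were called lower, 3 of them for RBCS and 2 for rca. That is a count of probes, not of genes, and the gene shares are no background for it. All 13 had a negative difference (median -1.74), and 10 had an adjusted p under 0.05 in limma. LFNR1, the ferredoxin-NADP reductase, gave 697, 621 and 703 in panicles and 6699, 6381 and 6855 in leaves. RBCS, the small subunit of Rubisco, had 4198, 3901 and 4553 in panicles and 14085, 13991 and 14186 in leaves on its brightest probe, a difference of -1.74 ± 0.69 that was not called. Its other 3 probes were called, with -2.70 to -3.13. For rca, Rubisco activase, 2 of 4 probes were called. The chlorophyll a/b-binding gene CAB2R was close to even, with 10394, 9757 and 9640 in panicles and 11745, 10893 and 11462 in leaves. On its brightest probe RBCS had an adjusted p of 0.0359 (limma), so it missed the 5-fold minimum alone. The model shares 1 spread over all groups, and RBCS, with its standard error of 0.69, ranged from 109 to 4328 in watered roots at elongation.

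Some pigment and plastid genes were called lower, and most were not called. Of 18 chlorophyll and carotenoid genes 4 were called lower (22.2%) and 14 in neither direction: CHLH, a subunit of magnesium chelatase, had 122, 174 and 158 in panicles and 2552, 1880 and 2563 in leaves. CHLI, a further subunit, was 12.3-fold lower, ZEP, of the xanthophyll pathway, 9.66-fold and NYC1, a chlorophyll b reductase, 7.24-fold lower. A second probe annotated to CHLH gave the opposite call, 264 to 425 in panicles and 18 to 25.4 in leaves, so the gene is uncertain. It was the only listed gene with opposite calls among 167 with several probes. For other named genes part of the probes were not called. Only 1 of 3 was called for EXP7, CSLF6, LOX9 and HSP18.6. For YAB1, LOG, IAA31, LOGL7, GLN2, GDCSH, NIA1 and KSL7 it was 1 of 2. Both probes were called for CESA4, SUS1, OSH1 and HSP18.1. Of 19 plastid genes 4 were called lower (21.1%) and 15 in neither direction. OsSig2B, a sigma factor of the plastid polymerase, was 15.9-fold lower, and GLK1, a transcription factor of chloroplast development, read 186, 188 and 179 in panicles and 1228, 915 and 1401 in leaves.

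Flowering signals showed 1 call, lower, among 15 genes of clock, day length and florigen (6.67%, against 4.78% of all genes). Hd3a, the florigen made in leaves, had 34.4, 27.5 and 26.2 in panicles and 1685, 1358 and 1715 in leaves, a difference of -5.76 ± 0.23. Clock genes such as GI and CCA1 differed by -0.14 and 0.07.

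The largest single differences included genes outside the lists. PRX74, a secreted peroxidase, led with 6026, 4606 and 4719 in panicles and 6.29, 10.1 and 8.45 in leaves, 626-fold or 9.29 ± 0.33. Os01g0529800, annotated as a very-long-chain fatty acid condensing enzyme, was 228-fold higher and LTP110-A, a lipid transfer protein, 219-fold. Enzymes of wall breakdown were among them, with the cellulase Os03g0108300 at 176-fold and the pectate lyase Os04g0137100 at 137-fold. The chitinase Cht7 read 7779, 7615 and 8549 in panicles and 66.4, 57.0 and 66.4 in leaves.

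The largest differences in the other direction were spread over genes of several functions. COPT1, a copper transporter, had 59.4, 55.3 and 56.8 in panicles and 5456, 5139 and 5372 in leaves, a difference of -6.54 ± 0.14. NAAT1, which makes the precursor of mugineic acid siderophores, was 90.1-fold lower, the glutaredoxin GRXC1 76.6-fold and the peroxidase Os02g0240300 107-fold. PDX12, annotated with vitamin B6 synthesis, was 74.5-fold lower and GLT2, an NADH-dependent glutamate synthase, 48.6-fold lower. GRXC15 had 11.9, 10.7 and 13.7 in panicles and 1399, 265 and 1215 in leaves, and leaf replicate 2 was the low leaf array for NAAT1 and GRXC1 too.

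Defence and stress genes were mixed. Of 26 defence genes 3 were called higher (11.5%, near the 11.6% of all genes) and 5 lower (19.2%, against 4.78%). Cht1 was 56.7-fold higher, while KSL7 and CYP71Z6, of diterpene phytoalexin synthesis, were 13-fold and 16-fold lower. Of 8 NAC factors 3 were called lower (37.5%), NAC048 by 7.18-fold, NAC45 by 6.94-fold and NAC067 by 5.52-fold (not called without panicle replicate 3, -2.29). Of 43 heat shock genes 6 were higher (14%) and 1 lower (2.33%). The lower one, HSP16.0, was not called without leaf replicate 1 or 3 (-2.12 and -2.17). HSP23.2 overlapped between the organs, with 7.84, 685 and 503 in panicles and 6.02, 11.1 and 11.6 in leaves, and its adjusted p was 0.0567 when the 6 arrays were fitted alone. HSP18.1, by contrast, was 9.83-fold higher with no overlap of the arrays. No gene of 8 for LEA proteins and dehydrins was called (5 with an adjusted p under 0.05).

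Roots and younger leaves placed these differences. Of the 2078 genes higher in panicles, 1423 (68.5%) had all 3 panicle arrays above each of the 30 leaf and root arrays, droughted ones included, against 16.3% of all genes. Since 3 of those 30 arrays were the ones that gave the call, this share is a description only. In watered roots 691 of the 2078 genes had a mean at least 5-fold below the panicle mean, and 1387 did not. Among the latter, OSH71 read 235 to 552 in watered roots at elongation and 250 to 298 in panicles. G1L2 read 458 to 705 in those roots and 237 to 300 in panicles. MADS6 and OSH1 had watered root medians of 27.4 to 29.2 and 21.9 to 24.8, although 1 root array at elongation read 84.2 for OSH1. PRX74 differed from these, with 2230 to 3260 in watered roots and no more than 32.5 in watered leaves of any stage. NRAMP5 was likewise at 1735 to 2667 in roots. Of the 856 genes lower in panicles, 673 (78.6%) had the 3 watered booting leaf arrays above all 18 panicle and root arrays, against 13.7% of all genes, a share to which the call itself likewise contributed.

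COPT1 and NAAT1 were among the exceptions to that pattern. For 244 of the 856 genes the watered root mean was not 5-fold below the leaf mean. Roots gave 5882 to 7428 for COPT1 and 3171 to 5824 for NAAT1, so the panicle was the low organ among the 3. Other exceptions were MADS26, at 855 to 1200 in watered roots at tillering, and OSH45, at 893 to 1044. Their watered booting leaves gave 892 to 1199 and 663 to 900. GLO1 was leaf-high at every stage, with medians of 9398 at tillering, 9691 at elongation and 10457 at booting. Hd3a depended on the stage of the leaf, with medians of 37.0 at tillering, 950 at elongation and 1685 at booting. The leaf level of CESA4 ran the other way, with medians of 1411, 348 and 151 over the same stages.

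**Figure D4:**
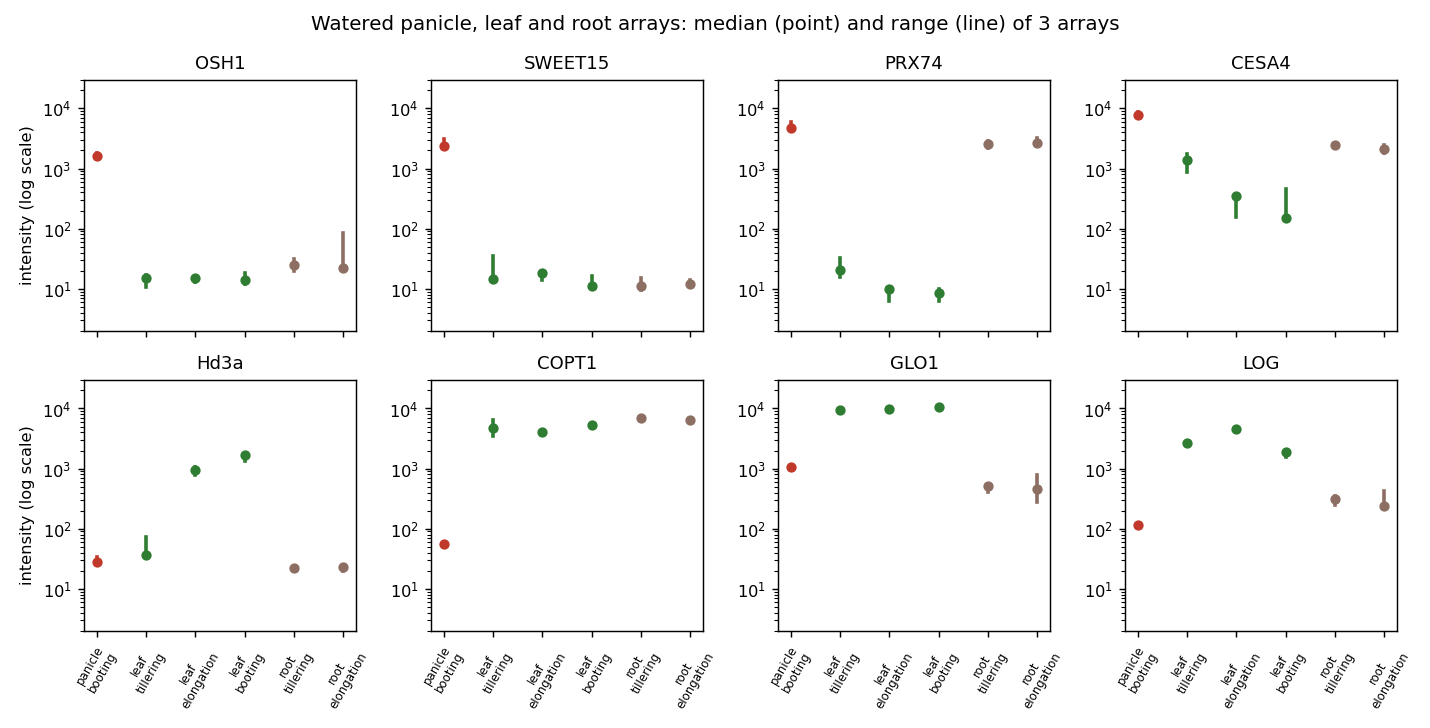
Intensity (log scale; point, median; line, range of 3 arrays) of 8 genes in watered young panicle, leaf at tillering, elongation and booting, and root at tillering and elongation. PRX74 is near background in leaves alone, COPT1 in panicles alone, and Hd3a in all but leaves at elongation and booting.

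The same 2 organs were compared in droughted plants, on arrays outside the watered means, although both contrasts shared the model's estimate of spread. In droughted plants, 1207 genes (6.74%) were called higher in panicles and 568 (3.17%) lower. Of the watered calls, 993 higher ones were called higher again (47.8% of the watered and 82.3% of the droughted calls) and 370 lower ones lower again (43.2% and 65.1%). In the opposite direction there were 2 and 0 genes. The change of the organ difference with drought was itself 5-fold or more with an adjusted p under 0.05 for 920 genes (5.14%).

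Of the 10 MADS-box factors called higher in watered plants, 9 were called higher in droughted plants too, and MADS15 was not (0.93, adjusted p = 0.225 in limma). MADS26, called lower in watered plants, was not called in droughted ones (-0.49, adjusted p = 0.234), and its difference changed by 2.24 (adjusted p = 0.000204). MADS57 was called lower in droughted plants alone, at -3.43 against -2.18 in watered plants, and the change itself did not pass (adjusted p = 0.111). RTS gave 8464, 8461 and 8867 in droughted panicles and 70.6, 87.1 and 71.2 in droughted leaves, and OSC6 still differed by 7.36 ± 0.26. The photorespiration list had 4 called lower in both conditions, and GLO1 differed by -3.17 ± 0.23. In the anther list, 3 genes changed 5-fold or more (CYP703A3, AP25 and OSC4). CYP703A3 had 31.8, 96.7 and 32.1 in droughted panicles and 33.5, 35.6 and 33.1 in droughted leaves, so the organs overlapped.

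Several sugar and wall genes had smaller differences in droughted plants. SWEET15 had 814, 445 and 840 in droughted panicles and 1498, 1537 and 1783 in droughted leaves, so the droughted panicle arrays lay below the droughted leaf arrays (adjusted p = 0.0545 in limma), and the organ difference changed by -8.90 ± 0.71. SUS1 gave 1421, 755 and 1853 in droughted panicles and 313, 520 and 342 in droughted leaves. LAC4 was near background in both organs of droughted plants, at no more than 24.1 in panicles and 17.7 in leaves. Cellulose synthases and related genes had 10 called higher in droughted plants and 19 in watered plants, and over all genes higher calls were fewer as well, at 1207 in droughted plants and 2078 in watered plants.

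Other genes had similar levels in both droughted organs. Hd3a read 19.4, 24.4 and 19.1 in droughted panicles and 26.5, 59.9 and 29.4 in droughted leaves, both near background. GA20OX3 had 1713, 2061 and 1614 in droughted panicles and 2051, 1883 and 1999 in droughted leaves, against 1639, 904 and 1023 in watered panicles and 54, 148 and 73.1 in watered leaves. Cht5 widened its difference, with 814, 1225 and 798 in droughted panicles and 20.6, 19.8 and 18.8 in droughted leaves, against 51.9, 189 and 218 in watered panicles and 25.3, 21.7 and 20.7 in watered leaves.

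**Figure D5:**
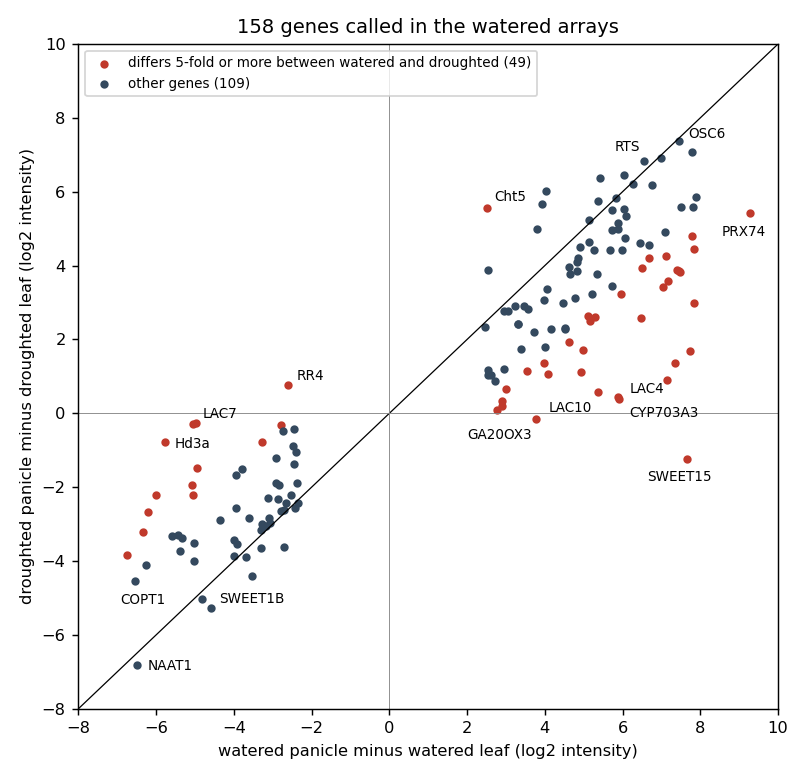
Organ difference (log2 panicle minus leaf) in watered plants (horizontal) and droughted plants (vertical) of 158 named genes called in the watered arrays, with the line of equality. For 49 of these genes, chosen largely for their watered difference, the difference itself changed 5-fold or more, against 5.14% of all genes. SWEET15, CYP703A3, LAC4, LAC10, Hd3a and LAC7 lie near 0 or beyond it on the droughted axis.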

How the data were processed

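The authors scanned Affymetrix rice genome arrays, and deposited intensity values that, according to the study's methods, had been normalized with dChip (invariant set). The dChip version and the background model are not given in the sources used here. Intensities under 1 were set to 1, log2 was taken, control probes were left out, and limma 3.58.1 (R 4.3.3) was fitted to all 36 arrays with 12 group means (24 residual degrees of freedom) and Benjamini-Hochberg adjustment. Arrays give no counts, and their number limits the precision. The 5-fold minimum follows the study's methods. The value of 0.05 was taken from them too, but the study set it on the p of a t-test and named no adjustment. Here it was set on the adjusted p of limma.

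Of 57258 probes, 22436 had 1 gene in the annotation tables, 95 several and 34727 none. For each of 17905 genes the probe with the highest mean over all arrays was used. Genes were named by rule: the 20 largest rises and falls without overlap, the 4 leading calls per list and direction, and all markers. Members and lists were chosen with earlier results of these data known, and the ribosomal, plastid and root lists were corrected after values were seen. Genes named for being not called, or as other list members, were chosen after their values were seen. Fits were tested on simulated data. Sequences were not analysed here.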

Additional observations from a re-analysis of the deposited data

Results flagged for a closer look

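The genes below were picked from the named genes by the limma interaction test. Their organ difference in droughted plants departed from that in watered plants by 5-fold or more (adjusted p under 0.05). Values are the change in log2 panicle minus leaf, droughted minus watered. Over all genes 920 (5.14%) passed, and not every named gene that passed is listed. Genes were named largely for their watered difference, and the same watered arrays enter the change. Smaller droughted differences were therefore favoured by the choice.

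For sugar genes the organ difference changed by -8.90 for SWEET15, -3.25 for SUS1, -2.57 for SWEET11 and -2.48 for CIN2. In the anther and pollen wall the change was -5.45 for CYP703A3, -2.85 for AP25 and -2.75 for OSC4. Cell wall genes changed by -5.51 for LAC4, -4.78 for LAC10, -3.62 for the cellulase Os03g0108300, -3.01 for EXPB11, -2.71 for EXPB6 and -2.67 for CESA9. The laccase LAC7, lower in watered panicles, changed by 4.76.

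The peroxidases PRX74 and Os11g0210100, higher in watered panicles, changed by -3.86 and -3.52. Os02g0240300, a peroxidase lower in watered panicles, changed by 2.91. Each of these peroxidases thus had a smaller organ difference in droughted plants. The lipid enzyme Os01g0529800 changed by -4.84, the unknown protein Os09g0323500 by -6.04 and the mandelonitrile lyase-like Os10g0524500 by -6.26. In growth and hormone lists the change was -3.90 for CYCP4-1, -2.67 for KIN14F, -2.46 for IAA31, -2.55 for LOGL7, -3.93 for GA20OX3, -2.62 for LOX5 and -2.39 for OPR10. RR4 and SAUR39, lower in watered panicles, changed by 3.37 and 2.83.

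Transport genes changed by -3.81 for NRAMP5 and -2.69 for PIP2-5, and heat shock genes by -2.36 for HSP18.6 and -2.70 for HSF23. The difference of Hd3a changed by 4.97, of PDX12 by 3.55, of GRXC15 by 3.79, of NAC45 by 2.49 and of Cht2 by 2.50, all of them genes that were lower in watered panicles. Cht5, higher in watered panicles, changed by 3.04.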

How the results depend on the processing

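Lowering the fold minimum to 2-fold gave 7602 probes higher and 5679 lower in young panicles, and dropping it gave 13133 and 15775, so more probes were lower than higher with no minimum. With 1 probe per gene 2078 and 856 genes were called, from fewer features tested. Leaving out 1 of the 6 arrays gave 2940 to 3072 higher and 1560 to 1803 lower. The other alternatives, among them the 6 arrays alone, an intensity trend, a higher floor (28.31), a filter on dim probes, quantile or median scaling, fold changes of linear medians and the probes without an _x or _s suffix, gave 2439 to 3040 higher and 1286 to 1808 lower, and the methods' t-test gave 2972 and 1627 at an unadjusted p under 0.05 and 2960 and 1619 after Benjamini-Hochberg; the 35-array fit without a leaf array at elongation that stood apart was added after seeing the data. No scaling moved the share of higher calls by over 10 percentage points. Same-numbered panicle and leaf arrays deviated together with r = 0.06, -0.04 and 0.10 over all probes, where not every array correlated best with its own number. Over the brighter probes r was 0.10, -0.05 and 0.16. With 3 arrays per organ, these values cannot show whether organs of the same number came from 1 plant. A fit with the replicate number as a block gave 2982 and 1630. Of 191 named genes, 178 kept their side of the thresholds in every alternative that tested them. None of the 158 called genes changed sign, whereas MER3, Lsi2 and NAS1, which were not called and lay within 0.13 of 0, did. The calls of LOGL10, CL27, VIT1.2 and NAC067 were lost with linear medians (2.11, -2.30, 2.29 and -2.26), of NIP3-1 and Cht5 with the higher floor (0.80 and 2.19), of AOS1 with quantile scaling (2.30), and of HSP23.2 with the 6 arrays alone. HSP16.0 fell short without leaf replicate 1 or 3 (-2.12 and -2.17) and Cht5 without panicle replicate 2 or 3 (2.24 and 2.14). MSP1, DMC1 and NRT2.3 passed without 1 array each (2.38, 2.40 and 2.38). Without leaf replicate 2, 2 genes instead of 1 were called lower among MADS-box, cellulose synthase, clock, aquaporin, WRKY and jasmonate genes, and without panicle replicate 1 2 of the LEA genes were called higher. The causes were not tested.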
